A study of Mus musculus with 2 samples.

Results

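Vitamin A metabolism was described in brain endothelium through 9 genes, *Aldh1a1*, *Aldh1a2*, *Aldh1a3*, *Rdh10*, *Stra6*, *Crabp1*, *Crabp2*, *Cyp26b1* and *Dhrs3*, out of 18194 genes with a probe set of their own on the array. The 9 genes were chosen by name after earlier results on the same deposited log2 values were known, so the differences given for them are a description and carry no test. They are represented by 12 probe sets, of which *Aldh1a3* has 3, *Rdh10* has 2 and the other 7 genes have 1 each. Both samples were CD31+ endothelial cells sorted by FACS from the brain vasculature of normal C57BL/6 mice, with CD31+ Prom1+ cells on 1 Affymetrix Mouse Genome 430 2.0 array and CD31+ Prom1- cells on the other. Prom1 is the protein also called CD133. The labels give no genetic alteration or treatment for either population, and neither they nor the methods state the age of these mice or how many were pooled. Each population was measured once, so the differences come without an error between animals and without p-values.

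Cells take retinol from its plasma carrier through the membrane receptor STRA6. RDH10 oxidizes retinol to retinaldehyde and DHRS3 turns retinaldehyde back into retinol, while the aldehyde dehydrogenases ALDH1A1, ALDH1A2 and ALDH1A3 carry the irreversible step to retinoic acid. Retinoic acid is bound in the cytoplasm by CRABP1 and CRABP2, acts in the nucleus through RAR and RXR receptors, and is degraded by the CYP26 enzymes. In the brain the meninges are a known source of retinoic acid, and STRA6 is known at the blood-brain barrier. ALDH1A1 is also used as a marker of stem and progenitor cells.

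Signals are given as multiples of the median of the same array, and 1.67 times the median was the floor, to which lower signals were raised before a fold was computed. With 1 side under the floor a fold is a bound, and with both under it none is given. *Pecam1*, which encodes CD31, had 69.2 times the median on the array labelled Prom1+ and 48.2 times on the array labelled Prom1-. *Prom1* had 159 and 196 times in the same order, a log2 difference of -0.30, so the transcript of the sorted protein did not separate the arrays and they are named here only by their labels. Where a gene had several probe sets, their log2 differences varied with an SD of 0.54 (3930 genes). This is a technical spread within the pair of arrays, and the spread among animals is not known from it. The summed signal of 15 pan-endothelial genes was 1906 times the median on the Prom1+ array and 1951 times on the Prom1- array, and 1 of them was at least 2-fold higher and none lower. Markers of several other brain cells were brighter on the array labelled Prom1-. The summed signal of 12 mural genes was 318 times the median on the Prom1+ array and 1032 times on the Prom1- array, that of 14 fibroblast and meningeal genes was 71.8 and 389 times, and that of 9 microglial genes was 96.2 and 221 times. In these 3 lists 10, 7 and 6 genes were at least 2-fold lower on the Prom1+ array and none was higher by as much. Most of the fibroblast and meningeal sum came from *Ptgds*, with 40.3 and 305 times, and 3 genes of that list were under the floor on both arrays. Among neuronal genes the sum over 9 was 3.54 and 24.7 times, with 3 lower and 6 under the floor on both arrays. Among choroid plexus and ependymal genes the sum over 8 was 215 and 439 times, nearly all from *Ttr*, with 3 lower and 4 under the floor. For 7 oligodendrocyte genes the sum was 215 and 437 times, with 1 higher and 2 lower. Most of that sum came from *Mbp* (119 and 271 times) and *Mobp* (56.9 and 153 times). For 9 astrocyte genes it was 118 and 114 times, with 1 higher (*Sox9*, 8.11 and 3.64 times) and 1 lower (*S100b*, 3.11 and 15.9 times). Of the 9 astrocyte genes 6 were measured, with *Gja1* at 84.5 and 67.0 times and *Slc1a3* at 17.7 and 18.5 times, while *Gfap*, *Aqp4* and *Aldh1l1* were under the floor on both arrays. The signal of *Actb* and *Gapdh* was higher at the 3' than at the 5' end of the transcript, by 1.72 and 1.62 times on the Prom1+ array and by 2.13 and 2.45 times on the Prom1- array. In bulk RNA, fewer cells of a type and less RNA per cell cannot be told apart.

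The zero point of the comparison depended on the scaling. Of 10793 genes at or over the floor on at least 1 array, 3045 were higher by 2-fold or more on the Prom1+ array and 515 lower, and their median log2 difference was 0.66. When the pan-endothelial genes were made equal, the split was 1821 higher and 605 lower, with a median of 0.43. It was 879 and 867 with both arrays set to the same trimmed mean (0.12), 689 and 841 after quantile normalization (0.10), 598 and 849 after loess (0.04), and 8644 and 189 with the hybridization controls set equal (1.64). Differences of the retinoid genes are therefore also given relative to the median gene.

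Of the 9 genes, *Aldh1a1*, an enzyme of the step to retinoic acid, had the largest difference. *Aldh1a1* reached 45.7 times the median in the Prom1+ sample and 6.31 times in the Prom1- sample, and was 7.24-fold higher in the Prom1+ sample. Of the marker lists of other cells, none had a median log2 difference above 0 as deposited. With the hybridization controls set equal, the medians of astrocyte and oligodendrocyte genes were 0.85 and 0.51. As deposited, *Sox9* of the astrocyte list was at least 2-fold higher and 1 gene of it lower. In the oligodendrocyte list *Cnp* was higher by as much and 2 genes were lower. The part of other cells in the difference of *Aldh1a1* was not tested. *Rdh10*, which makes the substrate of the step, had 9.73 times the median in the Prom1+ sample and 3.12 times in the Prom1- sample and was 3.12-fold higher. *Stra6* and *Dhrs3* were bright on both arrays and were 1.47-fold and 1.23-fold higher. *Aldh1a3*, *Crabp2* and *Cyp26b1* were over the floor only on the Prom1+ array, and *Aldh1a2* and *Crabp1* were under it on both. By the rule of a 2-fold difference, 2 of the 9 genes, *Aldh1a1* and *Rdh10*, were higher on the array labelled Prom1+ and none was lower. Over all measured genes 28.2% were higher and 4.77% were lower by the same rule, and over all measured probe sets 26.4% and 5.16%. Over the 12 probe sets of the retinoid genes, the count was again 2 higher and 0 lower. The genes were chosen with these differences known, so nothing is read from the comparison of the shares. Of the 2 genes past the 2-fold limit *Rdh10*, 3.12-fold higher, was the nearer to it. *Aldh1a3*, at least 1.92-fold higher, was not counted, but its fold is a bound and could be larger.

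**Figure D1:**
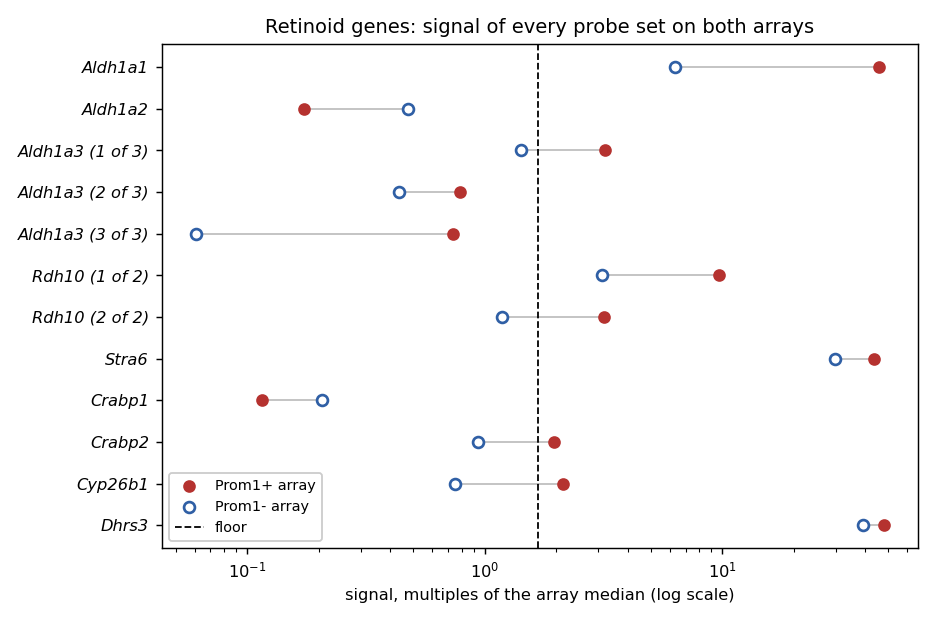
Signal of each of the 12 probe sets of the 9 retinoid genes, in multiples of the array median on a log axis, for the array labelled Prom1+ (filled red) and the array labelled Prom1- (open blue), with 1 array each. The dashed line is the floor of 1.67 times the median. Among probe sets over the floor on both arrays the longest gap is that of *Aldh1a1*, with 45.7 and 6.31 times.

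The proximal *Aldh1a1* promoter is shown because the gene carried the largest difference of the group. The sequence is from RefSeq on GRCm38.p6, chr19:20601718-20602017, plus strand, from 250 bases before the annotated start to 50 after it. The capitals mark 2 letter matches to CCAAT, a motif chosen after the windows were seen.
Aldh1a1: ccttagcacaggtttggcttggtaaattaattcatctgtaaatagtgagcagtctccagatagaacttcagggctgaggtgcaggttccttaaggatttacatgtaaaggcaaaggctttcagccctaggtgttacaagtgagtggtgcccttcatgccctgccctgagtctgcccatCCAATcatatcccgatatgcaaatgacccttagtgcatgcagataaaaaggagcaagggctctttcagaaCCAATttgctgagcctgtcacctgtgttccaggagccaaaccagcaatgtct
The matches begin at positions -72 and -2 relative to the annotated start, and the second runs across it. A second annotated start of the gene, chr19:20492333-20492632 by the same window, held none. CCAAT or its reverse complement was found in 5 of 12 windows, from 4 of the 6 retinoid genes matched by symbol. It was found in 37.4% of all 32851 promoter windows of this length. Windows of *Dhrs3* overlap and share a match, so the 12 windows are not independent. The core half-site of retinoic acid receptors, AGGTCA on either strand, was found in none of the 12 windows of these genes (*Aldh1a1*, *Aldh1a2*, *Crabp1*, *Cyp26b1*, *Dhrs3* and *Stra6*) and in 16.3% of all windows. Its direct repeats with 5 or 2 bases between the half-sites were in 3 of all windows each, and in none of the 12. These windows are short, and a letter match is neither a site nor a cause. The lack of an exact match in 12 windows does not show that a site is absent either.

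By size of the log2 difference, *Aldh1a1* was number 9 from the top of 9360 genes that reached the floor on both arrays. The gene was chosen with its difference known, so its rank and its place among neighbors are a description only. Its own difference was 2.86 on the log2 scale, beside an SD of 0.54 among probe sets of a gene. That SD is a technical spread within the same 2 arrays and does not measure a difference between populations. Among the 1000 probe sets nearest to *Aldh1a1* in mean log2 signal, the median fold was 1.81, 37.1% were at least 2-fold higher and 0 were as high as *Aldh1a1*. Its rank within the array also differed, at percentile 91.6 of all 45101 probe sets on the Prom1+ array and percentile 74.6 on the Prom1- array. Across the 6 scalings the log2 difference of *Aldh1a1* ran from 2.00 to 3.88. Relative to the median gene of the same scaling it ran from 1.96 to 2.24, or 3.89-fold to 4.74-fold higher. *Aldh1a1* has a single probe set, so no second measurement of the transcript was made.

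*Aldh1a7*, a rodent gene close in sequence to *Aldh1a1*, is measured by a probe set of its own. It had 5.81 times the median in the Prom1+ sample and 1.84 times in the Prom1- sample, 3.17-fold higher, and the Prom1- value was not far above the floor. Transcripts of such near copies can share probes, so the 2 values may not be independent. How much of either signal came from the other gene was not tested.

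**Figure D2:**
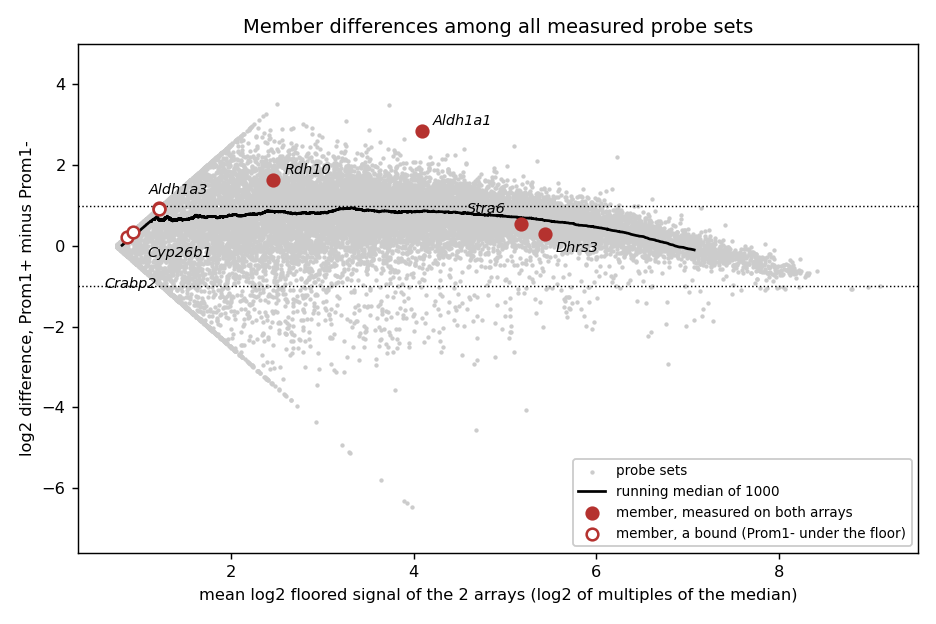
Floored log2 difference (Prom1+ minus Prom1-) against the mean of the floored log2 signals of the 2 arrays, for every probe set at or over the floor on at least 1 array (grey), with the running median of 1000 probe sets (black) and lines at 2-fold (dotted). Red points are retinoid probe sets, filled where both arrays were over the floor and open where the value is a bound. *Aldh1a1* lies at 2.86 and above its neighbors, *Rdh10* lies at 1.64, and *Stra6* and *Dhrs3* lie under the running median.

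Of the other enzymes of the same step, *Aldh1a3* was dim on both arrays. Its brightest probe set had 3.21 times the median in the Prom1+ sample and 1.42 times in the Prom1- sample, where it was below the floor, and was at least 1.92-fold higher. The others lay below the floor on each array, with 0.786 and 0.436 times for the second probe set and 0.738 and 0.0609 times for the third. Only the brightest probe set gives a direction, as a bound, and none of the 3 gives a fold with both sides measured. *Aldh1a2*, the enzyme known from the meninges, had 0.174 times the median in the Prom1+ sample and 0.473 times in the Prom1- sample. Both signals were under the floor, so no direction is given. The highest of 27 control probe sets for *Bacillus* transcripts, which no mouse gene should fill, was 0.234 times on the Prom1+ array and 0.276 times on the Prom1- array.

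*Rdh10* was measured by 2 probe sets. The brighter was 3.12-fold higher on the array labelled Prom1+, while its 1000 neighbors in signal had a median fold of 1.81 and 137 of them differed by at least as much. The dimmer had 3.18 times the median in the Prom1+ sample and 1.19 times in the Prom1- sample, below the floor there, and was at least 1.90-fold higher. Both probe sets had the higher signal on the same array. Relative to the median gene the log2 difference of the brighter ran from 0.73 after loess to 1.03 with the hybridization controls set equal. After loess its own log2 difference was 0.77, or 1.71-fold, and the gene no longer passed the 2-fold rule.

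*Dhrs3*, which opposes *Rdh10* by reducing retinaldehyde, had 48.0 times the median in the Prom1+ sample and 39.0 times in the Prom1- sample. Its log2 difference of 0.30 was smaller than the spread of 0.54 among probe sets of a gene, and 828 of its 1000 neighbors in signal were at least as high. *Stra6*, the retinol receptor, had 43.6 times in the Prom1+ sample and 29.8 times in the Prom1- sample, a log2 difference of 0.55, with 646 of 1000 neighbors at least as high. The direction of both genes turned with the scaling. *Dhrs3* ran from -0.33 to 1.32 and *Stra6* from -0.14 to 1.58 on the log2 scale. Relative to the median gene *Dhrs3* ran from -0.38 to -0.31 and *Stra6* from -0.19 to -0.06. Of the 6 scalings, 4 shift all genes alike before the floor is applied, so the position relative to the median gene is nearly fixed among them, and quantile normalization and loess are the ones that could move it. With these *Aldh1a1* lay 2.09 and 1.96 above the median gene, *Rdh10* 0.92 and 0.73 above it, *Stra6* at -0.19 and -0.18 and *Dhrs3* at -0.38 and -0.37.

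**Figure D3:**
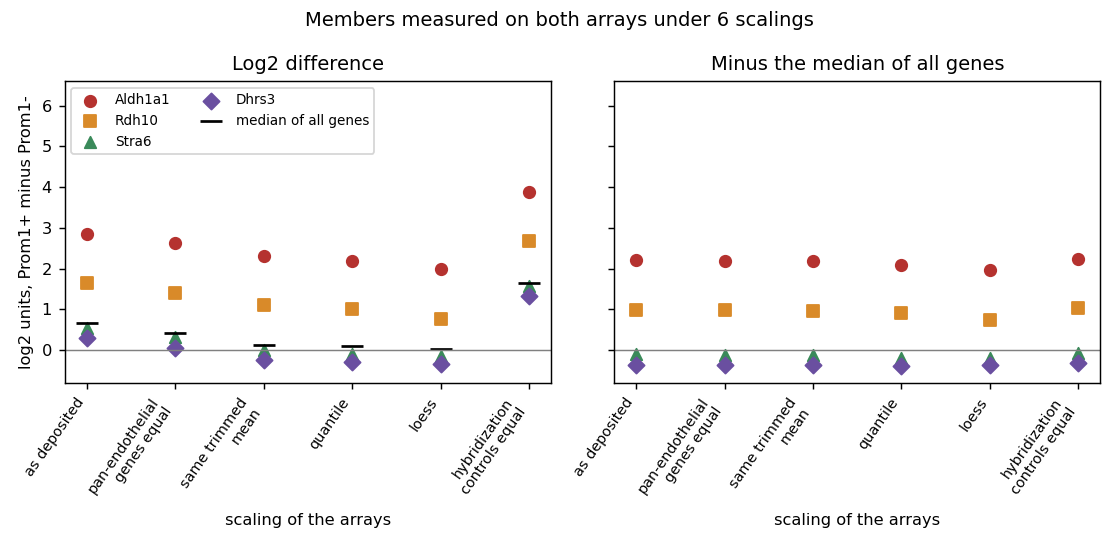
Log2 difference (Prom1+ minus Prom1-) of the 4 retinoid genes measured on both arrays under 6 scalings (left), with the median of all measured genes as a bar, and the same after that median was taken off (right). On the right *Aldh1a1* lies between 1.96 and 2.24 and *Dhrs3* between -0.38 and -0.31. The first 3 scalings and the last shift all genes alike, so their points differ little there.

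Binding and degradation of retinoic acid were represented by dim signals. *Crabp2*, the protein that delivers retinoic acid to its nuclear receptor, had 1.95 times the median in the Prom1+ sample and 0.939 times in the Prom1- sample, at least 1.16-fold higher. *Cyp26b1*, the retinoic acid hydroxylase of the adult brain, had 2.14 times in the Prom1+ sample and 0.753 times in the Prom1- sample, at least 1.28-fold higher. Both signals on the Prom1+ array lay just over the floor. With the floor halved, *Crabp2* and *Cyp26b1* passed the 2-fold rule, with log2 differences of 1.05 and 1.35. *Crabp1* had 0.116 times in the Prom1+ sample and 0.206 times in the Prom1- sample, below the highest *Bacillus* control on each array. Of the 9 retinoid genes, 7 reached the floor, 3 of them only through the Prom1+ array, where they could only come out higher. The median log2 difference of the 7, with 3 of them at their bounds, was 0.55, beside 0.66 over all measured genes. Over the 4 measured on both arrays it was 1.10, beside 0.69 over all such genes, so the order of the medians turned. Relative to the median gene, the median of the measured retinoid genes ran from -0.19 to 0.39 over the scalings.

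The rest of the pathway was read from lists of 65 further genes, of which 60 are on the array and 30 reached the floor. Of the 30, 13 were higher by 2-fold or more on the Prom1+ array, 3 were lower by as much and 14 lay between, with a median log2 difference of 0.69. Over all measured genes 28.2% were higher and 4.77% lower. Among the enzymes that interconvert retinoids, 7 of 19 were measured, of which 3 were at least 2-fold higher and none was lower, with a median of 0.59. The retinol dehydrogenase *Dhrs4* had 21.9 times the median in the Prom1+ sample and 9.02 times in the Prom1- sample, 2.42-fold higher. *Rdh13* was 2.46-fold higher, at 14.2 and 5.78 times in the same order, and the alcohol dehydrogenase *Adh1* was 2.32-fold higher, at 14.4 and 6.21 times. *Rdh11* had 10.6 and 9.80 times. *Rdh14*, another retinaldehyde reductase, had 10.1 and 6.74 times by its brightest probe set, a log2 difference of 0.59, and was 2.08-fold and 3.39-fold higher by 2 others. *Retsat*, which saturates retinol, had 9.16 and 9.09 times by its brighter probe set and was 4.59-fold higher by the other, at 8.53 and 1.86 times, so that its probe sets disagree. The count of 3 was 0 with the same trimmed mean, quantile normalization or loess and 6 with the hybridization controls set equal. In the same order, the share higher over all measured genes was 8.10%, 6.38%, 5.54% and 79.4%. The count was 5 with the mean over probe sets and also with no floor, beside shares of 26.7% and 28.2%.

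Retinoic acid receptors and their partners were measured for 5 of 8 genes, with a median log2 difference of 1.05. *Ppard*, a fatty acid sensor that can also bind retinoic acid, had 24.5 times the median in the Prom1+ sample and 9.22 times in the Prom1- sample, 2.65-fold higher. *Rxra* was 2.40-fold higher, at 26.0 and 10.8 times, and *Rarg* was 2.08-fold higher, at 25.3 and 12.2 times. By its second probe set *Rarg* was 2.22-fold higher. The other probe sets of *Ppard* (0.0245 and 0.0451 times) and *Rxra* (0.335 and 0.140, 0.192 and 0.459 times) were under the floor on both arrays. *Rxrb* was 1.91-fold higher, at 34.5 and 18.0 times. *Fabp5*, the carrier that brings retinoic acid to PPARD, was 1.33-fold lower, at 4.83 and 6.40 times, and its direction turned with the scaling. *Rara*, *Rarb* and *Rxrg* were under the floor on both arrays. Of the 5, 3 were at least 2-fold higher and none was lower. Under the other scalings 0 to 4 were higher and 0 to 1 lower, with none higher under the same trimmed mean, quantile normalization or loess. Over all measured genes 28.2% were higher and 4.77% lower as deposited, and the share higher ran from 5.54% to 79.4% over the scalings. With the mean over probe sets 1 receptor gene was higher and with no floor 5 were, beside 26.7% and 28.2% of all measured genes.

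Of 12 genes known to respond to retinoic acid, 5 were measured, none was at least 2-fold higher and 1 was lower. Over all measured genes 28.2% were higher and 4.77% lower. The median log2 difference of the 5 was -0.43. It ran from -0.92 to 0.59 over the scalings and from -1.09 to -0.84 relative to the median gene. *Tgm2*, a crosslinking enzyme induced by retinoic acid, had 152 times the median in the Prom1+ sample and 158 times in the Prom1- sample by its brightest probe set. Another of its probe sets was 4.09-fold higher, at 38.8 and 9.49 times, so its probe sets disagree. The receptor tyrosine kinase *Ret* had 31.9 and 32.7 times in the same order by the brighter probe set, and was 4.43-fold higher by the dimmer, at 7.98 and 1.80 times. *Nrip1*, a corepressor, was 1.35-fold lower at 13.9 and 18.8 times, while its other 2 measured probe sets were 1.43-fold and 1.33-fold higher. *Rarres2*, which encodes chemerin, was 2.03-fold lower at 11.9 and 24.2 times by its brightest probe set and 3.50-fold lower by the second, but at least 1.56-fold higher by the third, at 2.61 and 1.52 times. It is the 1 gene counted as lower. That count was 0 with the mean over probe sets, with _x_at and _s_at probe sets left out and with the hybridization controls set equal. In the other direction, it was 2 with the floor halved, the same trimmed mean or loess, 3 after quantile normalization and 4 with no floor. The count of higher genes was 1 with the mean over probe sets and 2 with no floor. Over all measured genes the share higher was then 26.7% and 28.2%. *Meis2* was at least 1.84-fold lower at 0.211 and 3.08 times by its brightest probe set, and its other probe sets were under the floor on both arrays. The difference of *Rarres2* was 0.00 with the hybridization controls set equal. *Cyp26a1* and *Rarb*, the standard direct targets of the receptors, did not reach the floor on either array, with 0.668 and 1.04 times on the Prom1+ array and 0.754 and 0.305 times on the Prom1- array.

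Carriers and stores of retinol were mostly not measured, with 7 of 9 under the floor on both arrays. *Ttr*, which carries retinol with its plasma binding protein and is made by the choroid plexus, had 210 times the median in the Prom1+ sample and 426 times in the Prom1- sample, 2.03-fold lower. With the hybridization controls set equal its log2 difference was 0.00. *Folr1* and *Kcnj13*, also of the choroid plexus, were at least 2.86-fold and 2.47-fold lower on the Prom1+ array. *Rbp7*, a cellular retinol-binding protein, had 0.985 times in the Prom1+ sample, under the floor, and 6.52 times in the Prom1- sample, at least 3.89-fold lower. The part of other cell types in these differences was not tested.

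**Figure D4:**
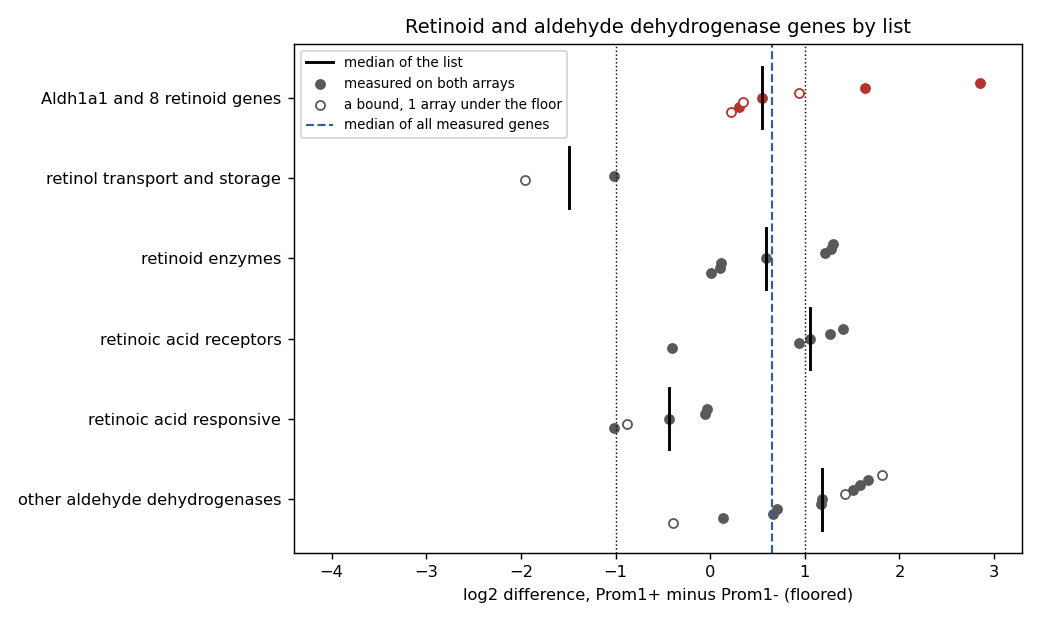
Floored log2 difference (Prom1+ minus Prom1-) of each measured gene, by list, with the 7 measured of the 9 retinoid genes in red. Filled points were over the floor on both arrays, open points are bounds, black bars are list medians, the dashed line is the median of all measured genes (0.66) and dotted lines mark 2-fold. *Aldh1a1* at 2.86 is the highest point of all lists, and the medians of the retinol carriers (-1.49) and the responsive genes (-0.43) lie below 0.

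Among 16 other aldehyde dehydrogenases, 11 were measured, 7 were at least 2-fold higher on the array labelled Prom1+ and none was lower, with a median log2 difference of 1.18, beside 28.2% higher and 4.77% lower over all measured genes. Over the scalings 3 to 10 were higher, while the share over all measured genes ran from 5.54% to 79.4%, and the median ran from 0.38 to 0.56 relative to the median gene. *Aldh3a2*, which oxidizes fatty aldehydes, had 45.3 times the median in the Prom1+ sample and 20.2 times in the Prom1- sample, 2.25-fold higher. *Aldh16a1*, at 5.91 and 1.36 times, was at least 3.53-fold higher, and at least 3.05-fold higher by its second probe set. *Aldh4a1*, *Aldh5a1* and *Aldh7a1*, which act on intermediates of amino acid and GABA breakdown, were higher by 1.59, 1.51 and 1.18 on the log2 scale. *Aldh9a1* was 1.59-fold higher at 65.6 and 41.3 times, and *Aldh6a1* was 1.63-fold higher at 25.8 and 15.8 times. The direction of *Aldh6a1* turned with the scaling. *Aldh2*, the mitochondrial acetaldehyde dehydrogenase, had 105 and 94.9 times and also turned. *Aldh1l2* was at least 1.31-fold lower, at 0.392 and 2.20 times. *Aldh1l1*, a marker of astrocytes, did not reach the floor on either array, with 0.266 times in the Prom1+ sample and 0.409 times in the Prom1- sample.

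The genes whose pair of log2 signals lay nearest to that of *Aldh1a1* over the 2 arrays, by Euclidean distance, were *Cutal* (0.48), *Ppp1r14b* (0.54), *Fanci* (0.54), *Vps33a* (0.56) and *Abhd11* (0.56). They were 4.19-fold to 4.95-fold higher on the array labelled Prom1+. With 2 arrays this likeness holds a level and a difference only.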

How the data were processed

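RNA of each sorted population was amplified and labeled with biotin, hybridized to an Affymetrix Mouse Genome 430 2.0 array and scaled to a target signal of 500 by the authors, with normalization in GeneSpring. MAS5 is named in the submitters' processing notes. The values the authors deposited are on a log2 scale with a median of 0 on both arrays and a lowest value of -6.64, and were read as signal relative to the array median. Precision is limited by having only 1 array for each population.

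The log2 values were taken back to signals and the arrays compared as Prom1+ minus Prom1-. The floor was 100 on the target scale, translated through the 2% trimmed means to 1.67 times the median, and signals under it were raised to it. Gene symbols came from the platform's annotation table. It lists 35890 of 45101 probe sets and not the other 9211. Of those listed, 34958 have 1 gene symbol, and 932 have several and were left out. Symbols of 34754 were taken, by gene identifier, from a RefSeq table of GRCm38.p6. The brightest probe set by mean signal stood for a gene. Neighbors were the 1000 measured probe sets nearest in mean log2 signal.

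Members and lists were chosen with earlier results of these data known. The genes named are all 9 retinoid genes, from each pathway list the brightest (up to 4) and those that differed most in each direction (up to 2), from each marker list the brightest (up to 3), and the 5 nearest to *Aldh1a1*. Genes beyond this rule, such as those that complete a count, were named after their values were seen. In all 12 alternatives were set: floors of 50, 200 or none, 5 scalings, loess with a span of 0.2 among them, the mean over probe sets, omission of _x_at and _s_at probe sets, and thresholds of 1.5-fold and 3-fold. The rule and the loess were tested on simulated data. Python 3.11.15, numpy 2.4.6, pandas 2.3.3, statsmodels 0.14.6 and matplotlib 3.10.9 were used.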

Additional observations from a re-analysis of the deposited data

How the results depend on the processing

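*Aldh1a1* stayed at least 2-fold higher on the array labelled Prom1+ under every floor, scaling and probe set rule tried. Its log2 difference of 2.86 was 2.31 with the same trimmed mean, 2.18 after quantile normalization, 2.00 after loess, and 3.88 when the hybridization controls were made equal. Of the 9 retinoid genes, 5 were at least 2-fold higher with the lower floor, with no floor or with the hybridization controls set equal, and 1 after loess, against 2 as reported. Over all measured genes the share at least 2-fold higher was 28.2% with the lower floor and with no floor, 79.4% with the hybridization controls set equal and 5.54% after loess. With no floor 1 was lower. The median of the measured retinoid genes was 1.18 with the lower floor and 1.45 with the hybridization controls set equal, against 0.55.

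Of the other pathway genes, against 13 higher and 3 lower, 20 were higher with no floor and with the hybridization controls set equal, 4 with the same trimmed mean or quantile normalization, and 3 after loess or with the 3-fold threshold. With the lower floor 5 were lower, 13 with no floor, 5 after quantile normalization, and 1 with the 3-fold threshold or the hybridization controls set equal. Of all measured genes, 28.2% were higher and 4.77% lower as deposited. The share higher was 28.2% with no floor and 79.4% for equal hybridization controls. It was 8.10% for the trimmed mean, 6.38% for quantile normalization and 5.54% for loess. The share lower was 6.89% with the lower floor, 18.6% with no floor, 7.79% for quantile normalization and 1.74% for equal hybridization controls. With no floor all 60 pathway genes on the array were counted, against 30 as deposited. A floor or threshold moves the counts by its own construction. The cause of the changes with scaling was not tested. Of 175 further values, 117 stayed within the spread between probe sets or within 1.5 times their count and 58 moved. Among those that moved, *Dhrs3* changed sign with the same trimmed mean (-0.25), quantile normalization (-0.29) and loess (-0.33), and *Stra6* with quantile normalization (-0.09) and loess (-0.14). Neither had passed 2-fold as deposited.

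Signals under 1.67 times the median limit what can be said of *Aldh1a2*, *Aldh1a3*, *Crabp1*, *Crabp2* and *Cyp26b1*. No paired analysis was possible because each population has 1 array, which also means that no array was left out in turn.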
